A study of Mus musculus with 16 samples.

Results

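Potassium channel genes were read out in mouse hippocampus by genotype, wild-type (WT) or hTau.P301S, and by nicotinamide riboside (NR), a precursor of the coenzyme NAD. Members were all genes whose symbol is Kcn followed by letters and a number, which takes in the pore-forming subunits and the auxiliary subunits of the Kcnab, Kcne, Kcnip and Kcnmb families and leaves out transcripts such as Kcnq1ot1. The table held 92 such symbols among 54532 genes, and 80 of them, from 20 families, were kept by a low-count filter over the 4 groups among 17555 genes kept in all. Each of the 4 groups had 4 libraries, called mice here. WT and hTau.P301S mice given plain drinking water are named WT and hTau.P301S, and those given 6 mM NR in the drinking water are named WT + NR and hTau.P301S + NR. By the sample labels, dosing lasted 3 months, from an age of 12 months to 15 months. The study's own text gives other ages and times, so these are uncertain. In hTau.P301S mice the neuronal Thy1 promoter drives a human tau with the P301S mutation, so the transgene is a model of tau overexpression in neurons. A library is taken as 1 animal, which the labels do not state, and p-values measure the spread between these libraries.

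Potassium channels set the resting potential of neurons, end action potentials and shape firing between them. Voltage-gated pores (Kcna, Kcnb, Kcnc, Kcnd, Kcnh, Kcnq) open on depolarization. Inward rectifiers (Kcnj) and tandem-pore leak channels (Kcnk) hold the membrane near the potassium equilibrium. Calcium- or sodium-activated channels (Kcnma, Kcnn, Kcnt) couple ion entry to potassium efflux. The Kcnu family was counted in that class for grouping alone, without a claim about its gating. Electrically silent subunits (Kcnf, Kcng, Kcns, Kcnv) pass no current alone and modify other voltage-gated pores, and auxiliary subunits alter the gating or traffic of the pores. In the hippocampus, pyramidal neurons rely on dendritic Kcnd2, and astrocytes clear extracellular potassium through Kcnj10.

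Total counts per mouse ran from 16490261 to 21915362. Levels are given as CPM, counts scaled by the TMM-adjusted library size, and as CPM per kilobase where genes are compared with each other. Markers of hippocampal neurons and glia were present in every mouse, and Thy1, whose regulatory sequence drives the transgene, was higher in all 8 hTau.P301S mice (667 to 1640 CPM) than in all 8 WT mice (424 to 634 CPM). One library stood apart. In hTau.P301S replicate 1, mitochondrially encoded genes took 14.4% of counts against 4.48 to 7.07% in the other 15, 19467 genes were detected against 22199 to 24918, and the members summed to 3228 CPM against 3682 to 5933 CPM. Its Pvalb level was 348 CPM against 14.8 to 68.7 CPM elsewhere. Pvalb is 1 of 6 inhibitory neuron markers, which summed to 1248 CPM there and to 612 to 1654 CPM in the other mice. Thalamic neuron markers summed to 211 CPM in this library and 212.7 CPM in hTau.P301S + NR replicate 4, against 32.3 to 131 CPM elsewhere. The 7 markers of striatal medium spiny neurons summed to 1793 CPM in WT replicate 2, 692 CPM in hTau.P301S + NR replicate 4 and 379 CPM in WT + NR replicate 3, against 139 to 235 CPM in the other 13. Several results that rest on these 4 libraries are given with and without them below, though not every one.

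Across the 16 mice, the auxiliary subunit Kcnab2, which binds Kcna channels, was the most abundant member per length, at 128 ± 39.2 CPM per kilobase (SD, n = 16). The next members were Kcnip2, a calcium sensor that binds Kcnd channels, at 43.7 ± 10.4, the inward rectifier Kcnj4 at 42.8 ± 12.6, the astrocytic inward rectifier Kcnj10 at 38.3 ± 11 and the leak channel Kcnk1 at 34.9 ± 7.22 CPM per kilobase. Neighbours among these 4 differed by less than the spread between mice, whereas the range of Kcnab2 from its lowest mouse, 59.5 CPM per kilobase, lay above the mean of each of them. Of the voltage-gated pores, Kcnc4 stood at 23.0 ± 5.23 CPM per kilobase, Kcnd2 at 22.7 ± 4.39, Kcnh3 at 16.8 ± 4.33 and Kcna1 at 15.8 ± 5.85. The first pair differed by less than the spread between mice, as did the second.

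Among electrically silent subunits, Kcnf1 led at 14.4 ± 5.32 CPM per kilobase, followed by Kcng2 at 12.5 ± 5.44, Kcnv1 at 9.56 ± 3.21, Kcng1 at 9.16 ± 2.56 and Kcns2 at 6.87 ± 1.43. Among calcium- or sodium-activated channels, the large-conductance Kcnma1 stood at 11.3 ± 3.97 CPM per kilobase, the small-conductance Kcnn2 at 5.80 ± 1.56 and the sodium-activated Kcnt1 at 5.35 ± 1.98. The neuronal Kcnma1 partner Kcnmb4 was at 2.42 ± 0.975 and Kcnu1, known from sperm, at 0.583 ± 0.209 CPM per kilobase. The lowest members kept were Kcnh8, Kcnn4 and Kcnq1, at 0.190, 0.139 and 0.136 CPM per kilobase. Kcnq1, with 167 counts over the 16 mice, was the member nearest the filter from above, and Kcnk7, with 81, was nearest from below. The other members not kept were Kcna7, Kcna10, Kcne1, Kcne3, Kcnj1, Kcnj15, Kcnk15, Kcnk16, Kcnk18, Kcnmb3 and Kcnv2, none with more than 9 counts in any mouse.

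**Figure D1:**
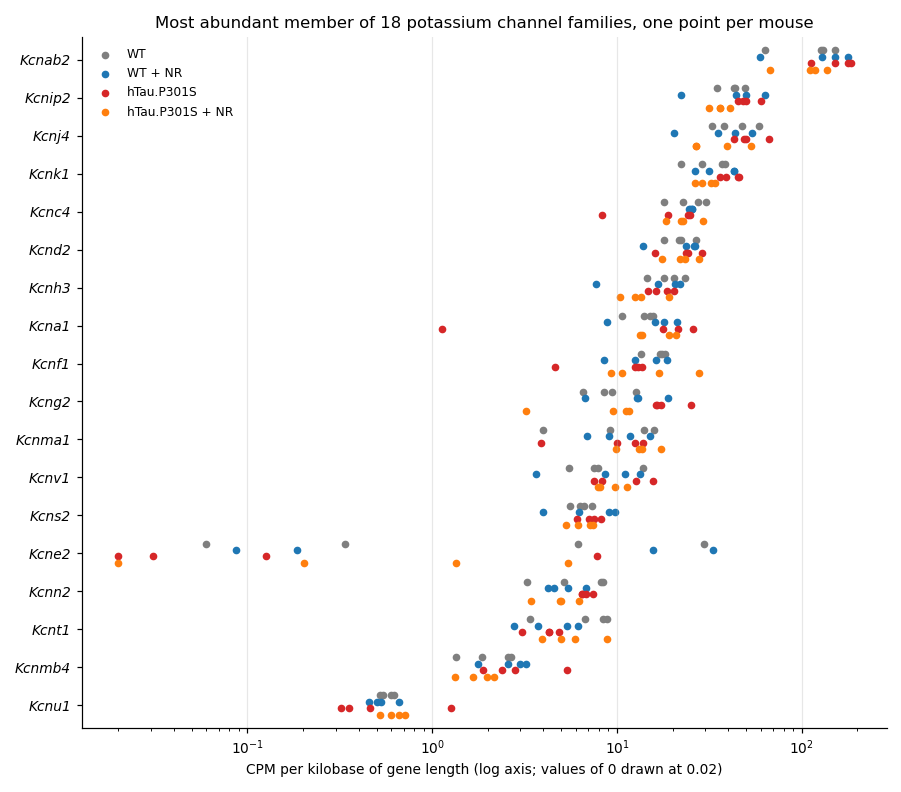
The most abundant member of 18 of the 20 families in CPM per kilobase of gene length on a log axis, with 1 point per mouse coloured by group and values of 0 drawn at 0.02. Most families span a narrow range over the 16 mice, whereas Kcne2 runs from 0 to 33.1 CPM per kilobase and Kcna1 has 1 low hTau.P301S mouse at 1.13.

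Summed by class, the 28 voltage-gated pores reached 2229.8, 1641, 2718 and 2660.4 CPM in WT mice, 2244, 2874, 1664 and 2433 CPM in WT + NR, 1047, 2492, 2332 and 2452 CPM in hTau.P301S, and 2454, 2088, 2781 and 2468 CPM in hTau.P301S + NR. The groups overlapped, and the lowest sum of each of the first 3 groups belonged to a library that stood apart above. The 13 inward rectifiers summed to 625, 579, 579 and 709 CPM in WT, 639, 659, 583 and 609.8 CPM in WT + NR, 374, 664, 572 and 622 CPM in hTau.P301S, and 666, 656, 693 and 707 CPM in hTau.P301S + NR. The 12 auxiliary subunits, led by Kcnab2, had their highest values, 1611 and 1595 CPM, in hTau.P301S replicates 3 and 4 and their lowest, 714 CPM, in WT + NR replicate 3.

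**Figure D2:**
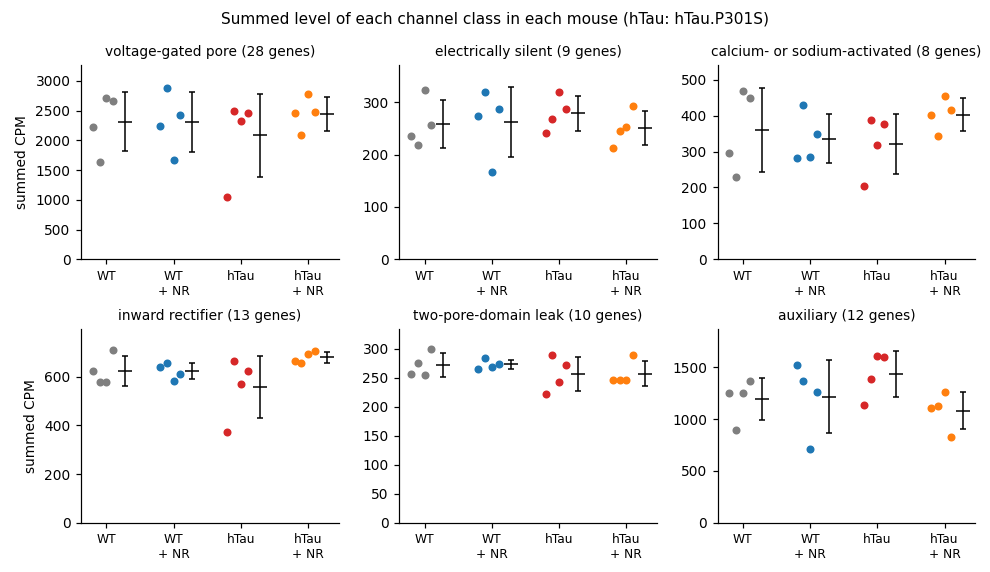
Summed CPM of each channel class in each mouse, 1 point per mouse in order of replicate number, with the mean and SD of the 4 mice of a group in black. The groups overlap in every class, and hTau.P301S replicate 1 is the lowest point for voltage-gated pores (1047 CPM) and inward rectifiers (374 CPM).

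Kcne2 and Kcnj13 varied widely between mice within every group, and were high in the same mice. Kcne2, a single-span auxiliary subunit, and Kcnj13, an inward rectifier of transporting epithelia, are both known from the choroid plexus, the tissue that secretes cerebrospinal fluid and lies against the hippocampus. Kcne2 was at 52.4, 10.8, 0.105 and 0.595 CPM in WT mice 1 to 4, 0.154, 0.328, 27.7 and 58.5 CPM in WT + NR, 0, 13.8, 0.0545 and 0.222 CPM in hTau.P301S and 0.358, 9.60, 0 and 2.38 CPM in hTau.P301S + NR. Kcnj13 was at 22.9, 8.35, 0.105 and 1.14 CPM, 0.0514, 0.601, 14.1 and 34 CPM, 0, 15, 0.163 and 1.05 CPM and 0, 8.24, 0.112 and 2.67 CPM in the same groups. The same 6 mice were above 8 CPM for both, and every group held at least 1 of them and 2 mice at 1.14 CPM or less. Ttr, the major secreted protein of the choroid plexus, was at 7381, 2339, 0.738 and 106 CPM in WT, 37, 26.5, 5529 and 9045 CPM in WT + NR, 6.50, 4469, 7.84 and 10.6 CPM in hTau.P301S and 44.4, 3412, 20.6 and 396 CPM in hTau.P301S + NR, so the mice high for Ttr were the mice high for both channels. The 6 choroid plexus markers summed to 19.8 to 9844 CPM over the 16 mice, and the part of this tissue in the levels of the 2 members was not tested. Neither gene was called in any comparison.

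The sequences just before the starts of these 2 genes are shown with those of Kcnj10 and Kcns1, an astrocytic pore and a silent subunit that separated tau mice with and without NR below. Each is the 250 bases before the start in RefSeq (GRCm38.p6), read 5′ to 3′ on the gene's strand, with CG dinucleotides in capitals. Kcne2 (chr16:92292139-92292388, + strand, the first of 2 starts) held 9 CG and Kcnj13 (chr1:87394730-87394979, - strand) held 3, whereas Kcnj10 (chr1:172340960-172341209, + strand) and Kcns1 (chr2:164171114-164171363, - strand) held 17 each.
Kcne2: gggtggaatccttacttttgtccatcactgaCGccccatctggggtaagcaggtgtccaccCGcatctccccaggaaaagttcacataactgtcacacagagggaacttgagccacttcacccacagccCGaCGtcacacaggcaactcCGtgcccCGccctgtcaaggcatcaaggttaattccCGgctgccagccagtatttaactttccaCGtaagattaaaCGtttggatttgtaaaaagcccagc
Kcnj13: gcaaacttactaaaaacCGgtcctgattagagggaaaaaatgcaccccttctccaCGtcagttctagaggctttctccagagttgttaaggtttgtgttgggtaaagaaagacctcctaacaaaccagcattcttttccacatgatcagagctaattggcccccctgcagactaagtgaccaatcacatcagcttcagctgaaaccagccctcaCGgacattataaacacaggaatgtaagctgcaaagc
Kcnj10: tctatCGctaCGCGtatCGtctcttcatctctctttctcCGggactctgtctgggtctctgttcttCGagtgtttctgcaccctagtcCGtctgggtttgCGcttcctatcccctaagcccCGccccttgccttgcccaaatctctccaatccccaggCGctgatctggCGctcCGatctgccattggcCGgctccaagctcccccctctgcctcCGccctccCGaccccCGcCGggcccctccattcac
Kcns1: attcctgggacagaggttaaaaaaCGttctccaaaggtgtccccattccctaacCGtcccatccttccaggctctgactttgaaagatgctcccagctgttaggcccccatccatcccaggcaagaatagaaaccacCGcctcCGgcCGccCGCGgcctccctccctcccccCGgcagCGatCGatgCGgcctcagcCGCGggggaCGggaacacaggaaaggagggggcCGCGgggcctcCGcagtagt
TAATCC, the core letters bound by the choroid plexus factor Otx2, was searched on both strands of windows from 250 bases before to 50 after each start. It was in 7.06% of all 32851 windows and in neither the Kcne2 nor the Kcnj13 window. Of the 80 members, 57 had a window, with a median of 11 CG against 7 over all 27025 genes, and 56.1% of these 57 held at least 10 CG against 43.9% of all genes. The 57 had passed the low-count filter, whereas the 27025 genes were not filtered by their counts, so the sets are not alike. Exons of Kcnj13 share 623 of their 1270 bases with Gigyf2 on the opposite strand. The strand setting of the counting is not given in the sources used here, and Kcnj13 had 0 counts in 2 mice.

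**Figure D3:**
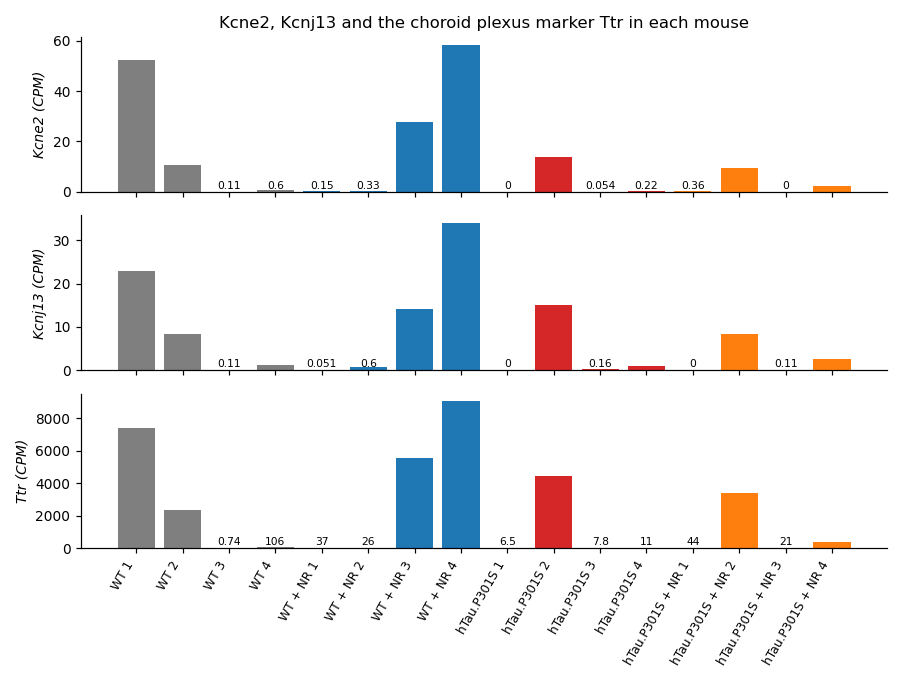
CPM of Kcne2, Kcnj13 and the choroid plexus marker Ttr as bars, 1 bar per mouse, with values printed over bars too low to see. The tall bars of the 3 genes fall in the same mice: WT 1 and 2, WT + NR 3 and 4, hTau.P301S 2 and hTau.P301S + NR 2.

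hTau.P301S replicate 1 was the lowest of the 16 mice for 37 of the 80 members, and for 35.5% of all genes kept. Kcna1, the low-threshold axonal channel, was at 5.38, 124, 103 and 85.1 CPM in the 4 hTau.P301S mice and at 72.5, 50.8, 75 and 67.3 CPM in WT. Kcna3 had no count in that library and 4.41 to 5.93 CPM in the other 3. In that library the median deviation from the gene means was -0.84 for the longest quartile of genes, 1.03 for the shortest and -0.71 for the members, on the log2 scale. Members had a median length of 4572 bases against 3931 for all genes kept, and 51 of the 80 were longer than that. The part of length in the members' low values in this library was not tested. With the trend with gene length removed from each library, the member median for NR in hTau.P301S was 0.05 in place of 0.15 on the log2 scale.

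The comparison of hTau.P301S with WT, both without NR, asked what the tau transgene changes in the channel set. A gene was called where edgeR's quasi-likelihood test gave an adjusted p under 0.05 with a log2 fold change beyond 0.5 in either direction. No member was called, against 0.0057% of all genes (1 of 17555). At an unadjusted p under 0.05, 2 members were higher, where 3.37% of all genes were, and 8 were lower, where 4.41% were. The median log2 fold change was -0.11 over the 80 members and 0.01 over all genes. Without hTau.P301S replicate 1 these medians were -0.03 and -0.04. Values of the 2 groups did not overlap for 3 members (Kcng2, Kcnj12, Kcnh6), where 6.31% of all genes did not. The 8 lower members belonged to 4 classes, with 3 of the 28 voltage-gated pores, 2 of the 13 inward rectifiers, 2 of the 8 calcium- or sodium-activated channels and 1 of the 12 auxiliary subunits, and both higher members were among the 9 silent subunits.

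The silent subunit Kcng2 had the smallest p. Its levels were 28.2, 19.5, 37.8 and 25.4 CPM in WT and 75, 49.3, 51.9 and 48.6 CPM in hTau.P301S, with no WT value reaching the lowest hTau.P301S value. The log2 fold change was 1.02 ± 0.25 (SE; adjusted p = 0.572, edgeR), with an exact permutation p of 0.0286, the smallest that 4 against 4 mice allow. Kcns1, another silent subunit, was at 10.7, 9.41, 16.4 and 16.4 CPM in WT and 23.9, 18, 21.9 and 16 CPM in hTau.P301S, with the lowest hTau.P301S mouse inside the WT range, and its log2 fold change was 0.58 ± 0.26 (adjusted p = 0.585, edgeR).

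Kcnj12 and Kcnh6, both of low abundance, were lower in every hTau.P301S mouse than in every WT mouse. Kcnj12, an inward rectifier, was at 7.18, 16, 7.86 and 9.47 CPM in WT and 4.36, 5.88, 4.68 and 5.21 CPM in hTau.P301S (log2 fold change -1.01 ± 0.30, adjusted p = 0.585, edgeR). Kcnh6, an ether-a-go-go-related pore, was at 2.74, 4.87, 4.11 and 2.81 CPM and 0.684, 1.85, 2.51 and 1.77 CPM (-1.08 ± 0.43, adjusted p = 0.585, edgeR). Neither group of values overlapped the other, and hTau.P301S replicate 1 was lowest for both.

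A further 6 members had an unadjusted p under 0.05 with overlapping groups. Kcnn3, a small-conductance calcium-activated channel, was at 26.9, 30.5, 28.5 and 20.1 CPM in WT and 9.49, 21.9, 18.1 and 17.3 CPM in hTau.P301S (log2 fold change -0.66 ± 0.27). The sodium-activated Kcnt1 was at 32.2, 79.5, 63.8 and 83.8 CPM and 40.8, 46.3, 28.9 and 40.6 CPM (-0.73 ± 0.30). For Kcnn3 1 hTau.P301S mouse, and for Kcnt1 3, lay within the WT range. Kcnh4, an ether-a-go-go-like pore, was at 2.47, 10.6, 5.70 and 5.08 CPM and 0.940, 2.07, 1.85 and 3.16 CPM (-1.56 ± 0.51). Kcnmb1, the auxiliary subunit of Kcnma1 in smooth muscle, was at 5.26, 4.20, 1.37 and 1.73 CPM and 0.256, 1.43, 1.25 and 0.720 CPM (-1.75 ± 0.62). Kcna5 was at 2.58, 26.9, 2.37 and 2.92 CPM and 1.45, 2.60, 2.56 and 2.22 CPM (-1.97 ± 0.84), a difference carried by WT replicate 2, the library high in striatal markers. Without that library, the Kcna5 log2 fold change was -0.24.

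Kcnj5, a subunit of G protein-gated inward rectifiers, was at 2.30, 4.99, 0.949 and 0.216 CPM in WT and 0.513, 0.212, 0.490 and 0.665 CPM in hTau.P301S, with a log2 fold change of -2.16 ± 0.85 and overlapping groups. Without WT replicate 2 it was -1.28. The 7 striatal markers summed to 218, 1793, 145 and 156 CPM in WT and 147 to 204 CPM in hTau.P301S, with WT replicate 2 alone far above. Their part was not tested, and in bulk tissue fewer cells of a type and less RNA per cell cannot be told apart. Without hTau.P301S replicate 1 and WT replicate 2, 12 members had an unadjusted p under 0.05, 5 higher and 7 lower, beside 16.2% of all genes. The count of 10 stood beside 7.79% of all genes. It fell to 6 without WT replicate 1 (5.63% of all genes) and to 5 without WT replicate 2 (7.44%), hTau.P301S replicate 3 (6.13%) or hTau.P301S replicate 4 (7.6%). With DESeq2, the study's tool, Kcng2 was called on the same 8 mice (adjusted p = 0.0474, with 0.022 to 0.854 over its alternatives), as were 0.752% of all genes. Without hTau.P301S replicate 1 DESeq2 again called Kcng2 alone (adjusted p = 0.022), where 1.66% of all genes were called, and on all 16 mice it called Kcnmb1 alone (adjusted p = 0.0464), where 2.81% were.

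**Figure D4:**
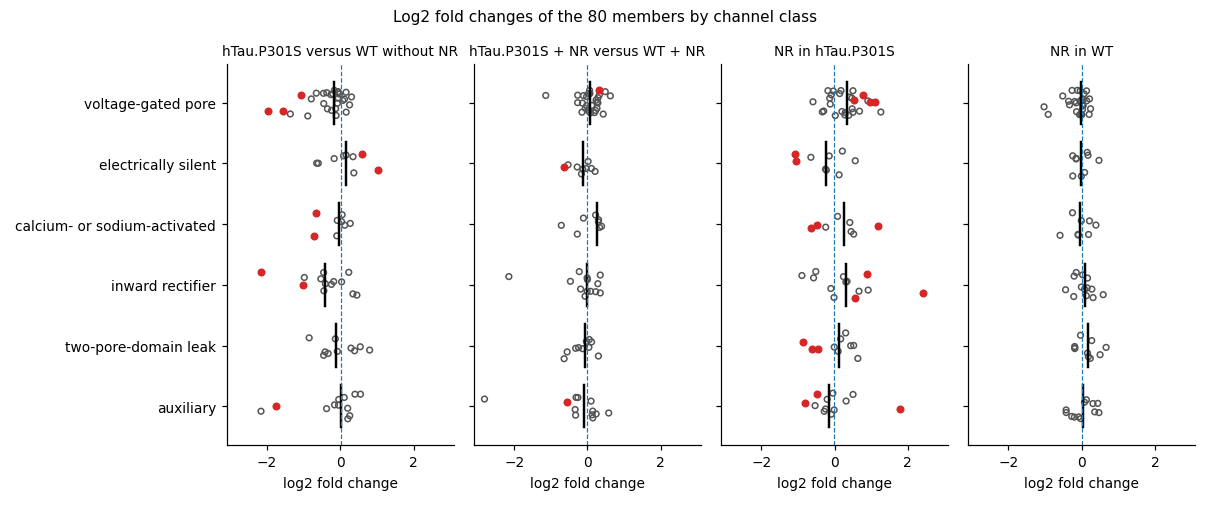
Log2 fold changes of the 80 members by class in the 4 pairwise comparisons, 1 point per gene, filled red at an unadjusted p under 0.05 and open otherwise. Black bars are class medians and the dashed blue line is the median of all genes. Red points are most numerous for NR in hTau.P301S (9 on each side) and absent for NR in WT.

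The same genotype comparison on NR, hTau.P301S + NR against WT + NR, rests on 8 other mice. No member was called, against 0.0513% of all genes (9 of 17555). At an unadjusted p under 0.05, 1 member was higher, where 2.36% of all genes were, and 2 were lower, where 3.87% were, and no member separated the groups, where 3.77% of all genes did. Member and all-gene medians were 0.02 and -0.02 on the log2 scale. None of the 3 members that separated the genotypes without NR did so on NR. Kcng2 was at 56.4, 38.6, 20.1 and 38.8 CPM in WT + NR and 33.7, 28.4, 34.9 and 9.67 CPM in hTau.P301S + NR (-0.53 ± 0.40, adjusted p = 0.803, edgeR). The groups overlapped and the sign was opposite to that without NR.

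Kcnd3, the A-type pore of interneurons and other neurons, was the higher member, at 96, 100.2, 82.1 and 98.5 CPM in WT + NR and 115, 97.1, 137 and 122 CPM in hTau.P301S + NR (0.32 ± 0.12, adjusted p = 0.775, edgeR). The lower members were Kcns1, at 15.6, 18.1, 8.54 and 16.7 CPM and 7.26, 8.77, 11.2 and 10.9 CPM (-0.63 ± 0.25), and Kcnmb4, at 8.53, 10.7, 5.87 and 9.88 CPM and 5.56, 6.57, 4.42 and 7.19 CPM (-0.56 ± 0.23). All 3 pairs of groups overlapped, for Kcns1 and Kcnmb4 only through WT + NR replicate 3. Without that library, high in striatal markers, 17 members had an unadjusted p under 0.05 (6 higher, 11 lower, beside 11% of all genes), and Kcnip1 was called at a log2 fold change of 1.055 ± 0.129 (adjusted p = 0.0176, edgeR), where 0.201% of all genes were.

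Kcnip1, a calcium sensor of Kcnd channels known from interneurons, is named here after its values were seen. It was at 14.9, 14.8, 35.4 and 12.3 CPM in WT + NR and 31.2, 29.3, 25.9 and 29.4 CPM in hTau.P301S + NR, so 3 of the 4 WT + NR mice lay below every hTau.P301S + NR mouse. Its adjusted p over all 8 mice was 0.775. Without NR it was at 23.9, 48.9, 15.5 and 15.5 CPM in WT and 24.1, 23, 24.3 and 21.7 CPM in hTau.P301S, where 1 WT mouse was again far above. That mouse was WT replicate 2, which was also high in striatal markers. Inhibitory neuron markers moved with it, with 6 markers summing to 612 to 1315 CPM in WT + NR and 988 to 1438 CPM in hTau.P301S + NR, and their part was not tested. The count of 3 members, beside 6.23% of all genes, became 5 without WT + NR replicate 2 (8.29% of all genes) and 1 without WT + NR replicate 4 (4.21%) or hTau.P301S + NR replicate 1 (3.63%).

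The comparison of hTau.P301S + NR with hTau.P301S, the effect of NR in tau mice, had the most members at an unadjusted p under 0.05. No member was called by edgeR, against 0.0057% of all genes (1 of 17555). At an unadjusted p under 0.05, 9 members were higher, where 6.06% of all genes were, and 9 were lower, where 6.86% were. Groups did not overlap for 15 of the 80 members, 8 higher and 7 lower with NR, where 11.8% of all genes did not. The median was 0.15 over members and -0.02 over all genes on the log2 scale. This comparison shares its hTau.P301S mice with the genotype comparison without NR, so opposite signs in the 2 are in part the same measurements.

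By class, 4 voltage-gated pores (Kcnh6, Kcnh7, Kcna5, Kcna2), 3 inward rectifiers (Kcnj5, Kcnj10, Kcnj2), Kcnn3 and Kcnmb1 were the higher members. The lower members were the leak channels Kcnk4, Kcnk1 and Kcnk12, the silent subunits Kcns1 and Kcng2, the calcium-activated Kcnn1 and Kcnn2, and the auxiliary subunits Kcnip2 and Kcnmb4. The small-conductance family thus held members on both sides, Kcnn3 higher and Kcnn1 and Kcnn2 lower.

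Among inward rectifiers, Kcnj10 (chr1:172341210-172374085, + strand, GRCm38), the astrocytic channel, was at 73.9, 189, 156 and 166 CPM in hTau.P301S and 305, 241, 271 and 264 CPM in hTau.P301S + NR, with every NR mouse higher. The log2 fold change was 0.89 ± 0.28 (adjusted p = 0.372, edgeR; exact permutation p = 0.0286). WT and WT + NR mice, at 227, 218, 147 and 210.5 CPM and 187, 189, 291 and 180.2 CPM, overlapped with hTau.P301S. Every WT mouse was below every hTau.P301S + NR mouse, and WT + NR overlapped with the latter through replicate 3 alone. Kcnj16, which joins Kcnj10 in glial channels, was at 6.84, 23.5, 26.9 and 26.3 CPM and 31.9, 33.8, 29.6 and 37.6 CPM without overlap (0.67 ± 0.37, unadjusted p = 0.108, edgeR). Kcnj5 (chr9:32314707-32344350, - strand) had the smallest p of the members, at 0.513, 0.212, 0.490 and 0.665 CPM and 2.56, 2.40, 1.29 and 3.94 CPM (2.43 ± 0.48, adjusted p = 0.257, edgeR). All of these Kcnj5 levels are low, and WT replicate 2 and WT + NR replicate 3, both high in striatal markers, reached 4.99 and 8.24 CPM.

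Calcium-activated channels differed in both directions. Kcnn3 (chr3:89520164-89675132, + strand) was at 9.49, 21.9, 18.1 and 17.3 CPM in hTau.P301S and 38.2, 38.2, 27.6 and 47.7 CPM with NR (1.18 ± 0.28, adjusted p = 0.328, edgeR). Kcnn1 was at 26.7, 16.4, 19.3 and 24.1 CPM and 12.1, 14.6, 15.1 and 13.5 CPM (-0.65 ± 0.20), and Kcnn2 at 47.6, 47.7, 54.2 and 49.98 CPM and 35.9, 36.4, 45.5 and 25.1 CPM (-0.48 ± 0.20). None of the 3 pairs of groups overlapped. Kcnma1, the pore that Kcnmb1 and Kcnmb4 bind, was at 65.7, 235, 169.7 and 214 CPM and 232, 167, 292 and 222 CPM with overlap (0.42 ± 0.37, adjusted p = 0.559, edgeR). Kcnmb1 (chr11:33963013-33973641, + strand), which lies within Kcnip1 on the other strand, was at 0.256, 1.43, 1.25 and 0.720 CPM and 4.12, 2.87, 3.14 and 2.72 CPM (1.78 ± 0.47). Kcnmb4 went the other way with overlapping groups, at 17.9, 6.25, 9.32 and 7.98 CPM and 5.56, 6.57, 4.42 and 7.19 CPM (-0.80 ± 0.35), its highest value in hTau.P301S replicate 1.

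Of the silent subunits, 2 were lower in every mouse with NR. Kcns1 (chr2:164163619-164171113, - strand) was at 23.9, 18, 21.9 and 16 CPM in hTau.P301S and 7.26, 8.77, 11.2 and 10.9 CPM in hTau.P301S + NR (-1.06 ± 0.22, adjusted p = 0.26, edgeR). Kcng2 was at 75, 49.3, 51.9 and 48.6 CPM and 33.7, 28.4, 34.9 and 9.67 CPM (-1.07 ± 0.37), without overlap for either gene. Without hTau.P301S + NR replicate 4 the Kcng2 log2 fold change was -0.79. Over the class, 6 of 9 log2 fold changes were below 0, with a median of -0.22. Kcns2, the most abundant of its family, was at 33.9, 39.5, 45.7 and 41.8 CPM and 39.8, 34.5, 41.5 and 29.6 CPM (-0.15 ± 0.17), Kcnv1 at 34.5, 38.2, 71.8 and 58.4 CPM and 36.3, 37.4, 45 and 52.1 CPM, and Kcnf1 at 22.1, 61.9, 65.9 and 59.8 CPM and 44.5, 80.9, 51.2 and 134 CPM, all with overlapping groups.

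The leak channels Kcnk4 and Kcnk1, and Kcnip2, were also lower in every mouse with NR. Kcnk4, a mechanically gated leak channel, was at 11.1, 7.42, 12.5 and 13.7 CPM and 5.51, 5.37, 6.61 and 7.29 CPM (-0.85 ± 0.24, adjusted p = 0.372, edgeR), every NR mouse below every other. In an annotation that gives Kcnk4 exons of 4465 bases, it shares 587 bases with Catsperz on the same strand. The deposited gene length of Kcnk4 is 1715 bases, so whether the shared bases were counted is not known. Kcnk1 was at 101, 102, 81.2 and 87.4 CPM and 59.3, 76.3, 72.2 and 64.3 CPM (-0.45 ± 0.16) and Kcnip2 at 166, 158, 210.2 and 175 CPM and 126, 142, 126 and 109.5 CPM (-0.49 ± 0.17), again without overlap. Kcnd2, the main partner of Kcnip2, was at 83.2, 125, 122 and 149.5 CPM and 120.2, 113, 144 and 90.5 CPM (-0.04 ± 0.22, adjusted p = 0.942, edgeR), with overlap.

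Voltage-gated pores as a class had a median of 0.34, with 20 of 28 above 0, on the log2 scale. Kcnh6 alone among the 28 separated the groups, narrowly, at 0.684, 1.85, 2.51 and 1.77 CPM and 3.67, 3.44, 2.52 and 5.30 CPM (1.12 ± 0.41). The abundant Kcnc4 and Kcna1 were lowest in hTau.P301S replicate 1, and their groups overlapped. Kcnc4 was at 30.4, 91.2, 69 and 88.9 CPM and 67.6, 81.5, 83.9 and 107 CPM (0.28 ± 0.33) and Kcna1 at 5.38, 124, 103 and 85.1 CPM and 92, 65.4, 99.8 and 63.9 CPM (0.02 ± 0.69). Without that library the median over the 80 members was -0.01 in place of 0.15.

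**Figure D5:**
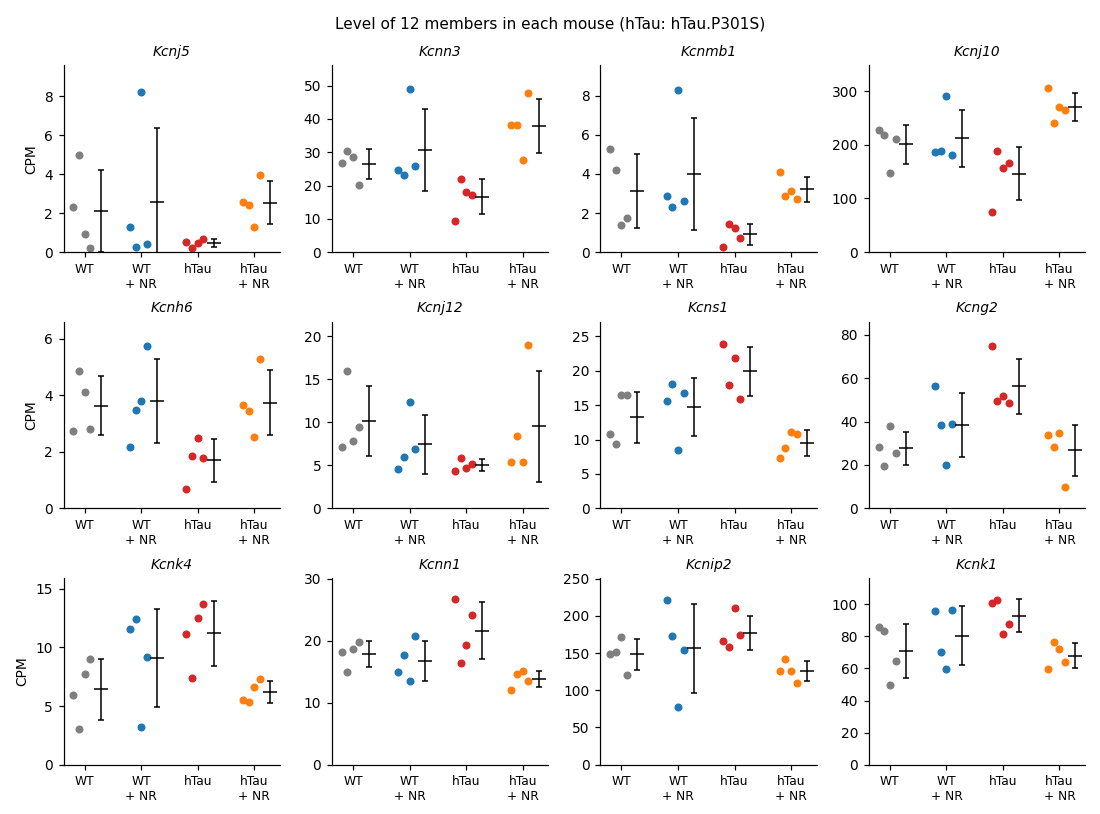
CPM of 12 members in each mouse, 1 point per mouse in order of replicate number, with the mean and SD of the 4 mice of a group in black (axes start at 0). The hTau.P301S + NR mice lie apart from the hTau.P301S mice for all shown but Kcnj12, above them for Kcnj5, Kcnn3, Kcnmb1, Kcnj10 and Kcnh6 and below them for the other 6.

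Some single cell type markers differed with NR in tau mice, while every summed list overlapped between hTau.P301S and hTau.P301S + NR. Among inhibitory neuron markers, Gad2 was at 43.5, 189, 183 and 163 CPM in hTau.P301S and 414, 382, 270.2 and 403 CPM with NR. The 6 markers summed to 872 to 1248 CPM and 988 to 1438 CPM. For this sum hTau.P301S replicate 1, the lowest for Gad2, was the highest of its group. The 5 astrocyte markers summed to 1645 to 2491 CPM and 1849 to 3665 CPM, with Aqp4 at 54.5, 124, 121 and 107 CPM and 274, 113, 214 and 192 CPM. The 6 pyramidal and granule neuron markers summed to 2179 to 6429 CPM and 3242 to 5369 CPM, and the 7 striatal markers to 147 to 204 CPM and 167 to 692 CPM. Oligodendrocyte markers summed to 5855 to 9174 CPM without NR and 5824 to 7824 CPM with it. Microglial sums were 220.9 to 423.5 CPM and 237.3 to 332 CPM. Those of endothelial cells and pericytes were 141.9 to 260.7 CPM and 181.8 to 225.5 CPM. The part of cell composition in the members' differences was not tested.

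Without hTau.P301S replicate 1, 26 members had an unadjusted p under 0.05, 15 higher and 11 lower, beside 17.5% of all genes. No member was called by edgeR on these 7 mice, where 0.173% of all genes were (31 of 17897), and the adjusted p of Kcnj10 was 0.0669, of Kcnn3 0.0672, of Kcns1 0.0679 and of Kcnj5 0.0704. Without hTau.P301S + NR replicate 4 as well, the count was 27 of 80 beside 17.3% of all genes. With DESeq2 on the 8 mice, 4 members were called, where 1.77% of all genes were: Kcnj5 (adjusted p = 0.000671), Kcns1 (0.00239), Kcnmb1 (0.00669) and Kcnn3 (0.0118). Over their alternatives these p-values ran from 0.000136 to 0.663, and all 4 genes kept their sign. On all 16 mice DESeq2 called Kcnn3, Kcns1, Kcnj10 and Kcnn1, where 1.63% of all genes were called. Without hTau.P301S replicate 1 it called 8 members, where 3.88% were: Kcnj10 (adjusted p = 3.6e-05), Kcnn3, Kcnj5, Kcns1 and Kcnmb1 as before, and also Kcnip2 (0.0138), Kcnk4 (0.0263) and Kcnab2, which was lower with NR (-0.66 ± 0.21, adjusted p = 0.0417).

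NR in WT mice gave no member at an unadjusted p under 0.05, where 0.416% of all genes were higher and 0.524% lower, and none that separated the groups, where 0.826% did. No gene at all was called (0% of 17554). DESeq2 also gave no member at an unadjusted p under 0.05 and called 5 genes, 0.0285% of all. The median was 0.00 over members and over all genes. The smallest p among members was that of Kcnh4, at 2.47, 10.6, 5.70 and 5.08 CPM in WT and 2.77, 5.30, 2.42 and 2.14 CPM in WT + NR (-0.91 ± 0.46, unadjusted p = 0.0772, adjusted p = 1, edgeR). Kcnj10, Kcnn3 and Kcns1 had log2 fold changes of 0.08 ± 0.20, 0.21 ± 0.26 and 0.15 ± 0.28, each within 1 SE of 0. The count was 2 without WT replicate 1 (1.93% of all genes), 1 without WT + NR replicate 2 (1.33%) and 5 without WT + NR replicate 3 (1.94%).

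Whether NR acted differently in the 2 genotypes was tested as an interaction over all 16 mice. No member passed an adjusted p of 0.05, and neither did any other gene (0% of 17555). At an unadjusted p under 0.05, 5 members were on the higher side, where 3.29% of all genes were, and 5 on the lower, where 4.63% were. The smallest p was that of Kcns1, whose NR difference was -1.06 ± 0.22 in hTau.P301S and 0.15 ± 0.28 in WT mice. Its interaction was -1.22 ± 0.36 (adjusted p = 0.558, edgeR). An exact permutation p of 0.00776 came from shuffling genotype labels within each NR state. That shuffle tests for no genotype difference in either state, not for the interaction alone. Kcng2 (-1.55 ± 0.51), Kcnk4 (-1.36 ± 0.54), Kcnmb4 (-1.11 ± 0.46) and Kcnk1 (-0.63 ± 0.27) were the others below 0. Kcnh4 (1.82 ± 0.74), Kcnj12 (1.36 ± 0.58), Kcnt1 (1.11 ± 0.45), Kcnn3 (0.97 ± 0.39) and Kcnj10 (0.81 ± 0.35) were above 0. DESeq2 called 0.103% of all genes and no member here. Without hTau.P301S + NR replicate 4 the values of Kcnj12 and Kcnh4 were 0.78 and 1.18, and without hTau.P301S replicate 1 that of Kcnmb4 was -0.70. The count of 10, beside 7.92% of all genes, became 18 without WT + NR replicate 3 (9.35% of all genes), 6 without WT + NR replicate 2 (6.96%), 5 without WT + NR replicate 4 (5.56%) and 4 without hTau.P301S + NR replicate 4 (5.81%). Without all 4 libraries that stood apart it was 21, 9 higher and 12 lower, beside 13.4% of all genes.

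Genotype over both NR states, 8 mice against 8, also gave no called member, against 0.159% of all genes (28 of 17555). One member was higher at an unadjusted p under 0.05, where 3.99% of all genes were, and 1 was lower, where 5.07% were. Kcnk6, a leak channel, was the higher one, at 5.64, 2.75, 3.74 and 4.54 CPM in WT, 6.52, 3.83, 4.44 and 4.85 CPM in WT + NR, 5.30, 7.26, 4.96 and 6.82 CPM in hTau.P301S and 7.84, 4.85, 6.83 and 4.66 CPM in hTau.P301S + NR (0.42 ± 0.19, adjusted p = 0.526, edgeR). Kcnmb1 was the lower one (-1.03 ± 0.38, adjusted p = 0.426, edgeR), from 2.88, 2.29, 8.29 and 2.60 CPM in WT + NR and the levels given above. Without WT + NR replicate 3 its value was -0.71. The Kcnmb1 difference in mean log2 CPM was -1.66 without NR and -0.12 on NR, where the groups overlapped. The count of 2, beside 9.06% of all genes, became 7 without hTau.P301S + NR replicate 4 (8.76% of all genes), 4 without hTau.P301S replicate 2 (13.5%), and 1 (7.1 to 9.34%) without any single one of WT replicate 3, WT + NR replicates 2, 3 and 4, hTau.P301S replicate 4 and hTau.P301S + NR replicates 1 and 3. Without all 4 libraries that stood apart it was 9 of 80, beside 18.4% of all genes, and Kcnip1 was called at 0.69 ± 0.12 (adjusted p = 0.0283, edgeR), where 1.16% of all genes were. DESeq2 on all 16 mice called no member, where 0.951% of all genes were called.

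Genes whose products bind, anchor or work beside potassium channels but do not share the name were followed as a list of 26, of which 25 were tested. None was called by edgeR in any of the 6 comparisons. At an unadjusted p under 0.05, 1 was higher and 3 lower in hTau.P301S against WT, and 5 were higher and 1 lower with NR in hTau.P301S, with list medians of -0.19 and 0.31 on the log2 scale. Over all genes, 3.37% were higher and 4.41% lower in the first comparison and 6.06% and 6.86% in the second, with medians of 0.01 and -0.02. Both comparisons include hTau.P301S replicate 1, without which the medians of the Kcn members were -0.03 and -0.01. The list of partners was not refitted without that library. The Kcnma1 partner Lrrc55 (0.98 ± 0.26), the Kcnd partner Dpp10 (0.98 ± 0.36), Adam22, a receptor of the Kcna-associated protein Lgi1 (0.57 ± 0.20), and the pacemaker channels Hcn3 (0.64 ± 0.20) and Hcn4 (1.85 ± 0.65) were the 5 higher, and Lgi3 (-0.68 ± 0.29) was the lower. In hTau.P301S against WT, Lgi3 (0.87 ± 0.31) was the higher one and Hcn4 (-1.17 ± 0.47), Hcn3 (-0.79 ± 0.33) and the scaffold Dlg1 (-0.50 ± 0.21) the lower, from the same hTau.P301S mice. On NR, Adam22 (0.33 ± 0.11) and Cntn2 (0.31 ± 0.11) were higher in the tau mice, and NR in WT gave none.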

How the data were processed

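Hippocampal RNA was sequenced as poly(A)-selected libraries. The authors trimmed reads with Trim Galore, checked them with FastQC, aligned them to the mouse genome with STAR and counted them with RSEM, and deposited raw counts per gene as whole numbers. Library strand was not given in the sources used here, so overlapping genes are uncertain. Total counts per mouse, which limit the precision of low counts, ran from 16490261 to 21915362.

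Genes were kept by edgeR's filterByExpr over the 4 groups (17555 of 54532), scaled by TMM and tested with edgeR's quasi-likelihood test (edgeR 4.0.16, R 4.3.3) with Benjamini-Hochberg adjustment over all genes tested. Each pairwise comparison was fitted on its own 8 mice, and genotype and the interaction on all 16. Genes were called below an adjusted p of 0.05 with a log2 fold change beyond 0.5 in either direction, and for the interaction by the adjusted p alone. Exact permutation tests were two-sided, on log2 CPM with a prior count of 2, with 0.0286 the smallest p for 4 against 4. Over all 16 mice they shuffled genotype labels within each NR state. DESeq2 1.42.0 was an alternative. Figures were drawn with matplotlib 3.10.9 in Python 3.11.15.

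Members were all symbols of the form Kcn, letters and a number. The text names members called in any fit, the 10 with the smallest p under 0.05 in each comparison, the most abundant member of each family per length, any that separated the genotypes the same way with and without NR (there was none), and others marked as chosen after their values were seen or given to complete a class or a complex. The members and lists were chosen with earlier results of these data known. Fits leaving out libraries that stood apart, and the DESeq2 fits on all 16 mice or without hTau.P301S replicate 1, were added after seeing the data. The models were tested on simulated data. Promoter sequences are from RefSeq (GRCm38.p6), with 57 of 80 members matched. Some members counted here are not reported by name.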

Additional observations from a re-analysis of the deposited data

Results flagged for a closer look

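In groups of 4 mice, a mouse was marked where its gap to the nearest other was a larger share of the group's range than Dixon's critical value for 4 samples allows. The 31 members examined were those named among the 10 smallest p of a comparison or as the most abundant of a family. Others in the text, such as Kcnj16 and Kcnip1, were not examined. Over the 31 members and 4 groups, 124 groups were examined and 8 were marked, where chance marks about 1 in 20. Of these, 4 were in hTau.P301S replicate 1: Kcna1 at 5.38 CPM (median of the other 3, 103), Kcnd3 at 29.7 CPM (112) and Kcnf1 at 22.1 CPM (61.9) were low, and Kcng2 at 75.0 CPM (49.3) was high. In WT + NR replicate 3, Kcnj10 was high at 291 CPM (187) and Kcnn3 at 49.1 CPM (24.6). Kcna5 was high in WT replicate 2 at 26.9 CPM (2.58), and Kcng2 was low in hTau.P301S + NR replicate 4 at 9.67 CPM (33.7). All 4 libraries are those that stood apart in mitochondrial or striatal genes, and the part of either in these values was not tested.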

How the results depend on the processing

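The tool moved the number of called members most. For hTau.P301S versus WT the count was 0 in edgeR, 1 in DESeq2, 1 in DESeq2 on all 16 mice (Kcnmb1, adjusted p = 0.0464) and 1 in DESeq2 without hTau.P301S replicate 1, with 1, 132, 494 and 297 of all genes called. For NR in hTau.P301S it was 0, 4, 4 and 8, with 1, 310, 287 and 695 of all genes called. All genes called went from 9 to 61 for hTau.P301S + NR versus WT + NR, from 0 to 5 for NR in WT, from 28 to 167 for genotype and from 0 to 18 for the interaction with DESeq2. Leaving out 1 mouse gave 0 to 1 called members for hTau.P301S + NR versus WT + NR. Omitting the 4 libraries that stood apart gave 1 for genotype. The cause was not tested. For members named among the 10 smallest p under 0.05 of a comparison, no log2 fold change changed sign under any alternative run. Other named members, such as Kcnh7, Kcna2 and Kcnn2 for NR in hTau.P301S and those named for their level, were not followed one by one. Same-numbered mice correlated at -0.537 to 0.287, so the numbers do not pair them. With a replicate block, members at an unadjusted p under 0.05 numbered 8, 2, 10, 2, 3 and 11 in place of 10, 3, 18, 0, 2 and 10, in the order hTau.P301S versus WT, the same on NR, NR in hTau.P301S, NR in WT, genotype and interaction. All genes at that p went from 7.79, 6.23, 12.9, 0.94, 9.06 and 7.92% to 5.01, 3.88, 6.04, 0.587, 7.7 and 5.62%. Only 2 of 16 same-numbered pairs were the best match of their mouse. On all 16 mice in 1 edgeR fit, 36 genes were called for hTau.P301S versus WT and no member. Depth limits the lowest members, such as Kcnq1 with 167 counts in all.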
